A study of Mus musculus with 47 samples.

Results

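Of 47 RNA-seq libraries of mouse T-cell precursors, 7 came from fetal liver cultures that received a Cre retrovirus and a reduced amount of interleukin 7 (IL-7), chosen by those labels and their titles. The knockout group held 4 libraries from precursors with floxed Bcl11b alleles, 1 grown on OP9-DL1 stroma and 3 on OP9-DL4 stroma, all titled DN2a. The control group held 3 libraries from B6 precursors with intact Bcl11b, 2 on OP9-DL1 and 1 on OP9-DL4, all titled DN2b. OP9-DL1 and OP9-DL4 are stromal lines that present the Notch ligands Delta-like 1 and Delta-like 4. DN2a and DN2b are successive stages of CD4-negative, CD8-negative precursors before and during commitment to the T lineage. Liver cells of E13.5 embryos were transduced and kept for 24 h on stroma with Flt3L, IL-7 and SCF at 5 ng/ml each. They were then re-sorted and cultured with Flt3L and IL-7, with a harvest after 8.5 to 14 days. In these early cultures IL-7 was lowered at the first feeding so that differentiation would be faster. The labels state neither the lowered concentration nor the day of harvest of each of the 7 libraries. They add that the practice was given up because it affected cell yield and RNA quality. For comparison, 10 knockout and 8 control libraries had the same Cre transduction and standard IL-7.

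Several features limit these groups as models. The protocol gates floxed cells as Kit-high DN2a and controls as Kit-intermediate DN2b, so the gate changes with the genotype, and Kit levels were part of the sort. Floxed alleles came from 2 mouse sources, and the library titles do not say which, so the mouse line may also change with the genotype. Titles of these controls name B6 but not Cre. The titles carry dates. Knockout libraries came from July on DL1, July on DL4 and September on DL4 of 1 year, and from DL4 in September of the following year, called the later knockout below. Control libraries came from July on DL1, September on DL1 and September on DL4 of the first year. Per-library values follow these orders. All 18 libraries with standard IL-7 are titled with the following year or the one after, so IL-7 level goes almost entirely with the year. The labels do not say which libraries shared embryos or a culture, so p-values measure only the spread between libraries.

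Bcl11b is a zinc-finger regulator whose gene is activated at T-lineage commitment, and it is needed for precursors to leave the DN2a stage. Precursors that lack it keep stem and progenitor genes on and turn on genes of natural killer (NK) and innate lymphoid cells. IL-7 signals through its receptor, made of the Il7r chain and the common gamma chain Il2rg, to the kinases Jak1 and Jak3 and the transcription factor STAT5. It sustains survival and growth of early precursors, and lowering it in culture is used to let them advance to later stages.

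The files hold FPKM, fragments per kilobase of transcript scaled to library size, with a lowest value of 0.1, called the floor. The values are described as adjusted with ComBat for batches. Whether a value at the floor means that no reads were found is therefore unknown. Knockout libraries had 12023 to 12764 genes at 1 FPKM or more, and controls had 11875 to 12364. The 2 July knockout libraries correlated at r = 0.987 on the log2 scale, the highest value among the 7, although 1 was grown on DL1 and the other on DL4. The later knockout correlated at r = 0.988 with the standard IL-7 knockout of its own date, against 0.968 to 0.973 with the other reduced IL-7 knockouts. Its highest correlation, also r = 0.988 after rounding, was with a standard IL-7 knockout of another date. The July control stood apart from the other 2 controls (r = 0.960 and 0.954, against 0.983 between those 2), correlated at r = 0.955 with the later knockout, and had the lowest median value, 3.51 FPKM. Some results that rest on these libraries are given with and without them below. The closing section counts the calls of named genes that ended without each library. Markers of T precursors were present in all 7, with Il2ra between 220.1 and 460 FPKM and Tcf7 between 376 and 724 FPKM.

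Bcl11b itself had 23.6, 26.5, 29.3 and 24.1 FPKM in knockout libraries, against 16.9, 54.5 and 80.7 FPKM in controls. The July control thus lay below every knockout library, and the groups overlapped. The log2 difference was -1.0 (SE 0.43, adjusted p = 0.3) and was not called. Without that control it was -1.41 (adjusted p = 0.0225). In the standard IL-7 libraries Bcl11b ranged from 8.77 to 37.9 FPKM in knockout and from 39.9 to 84.4 FPKM in control, without overlap. Which exons Cre removed is not stated in the labels, and a level over the whole gene can therefore check the genotype only loosely. That library is called the July control by its label only.

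The knockout cultures had lower levels of CD3 and proximal T-cell receptor genes and higher levels of innate lymphoid and NK genes. Of 12879 genes tested, 430 (3.34%) differed at an adjusted p under 0.05, and these are called below. In the knockout cultures 336 (2.61%) rose and 94 (0.73%) fell, and every called gene differed by at least 2-fold on the log2(FPKM + 1) scale. The median difference over all tested genes was 0.10, so differences are read relative to that shift. Quantile normalization set that median to -0.01 and gave 267 higher and 124 lower, while scaling every library to the same total moved it to 0.23 and gave 295 higher and 41 lower. With title date as a block, 133 genes were called, 116 higher and 17 lower. Without the July knockout on DL1, which leaves all knockouts on DL4, 104 were called. Without the September control on DL4, which leaves all controls on DL1, 71 were called. Without the September control on DL1 the count was 183, and without both July knockouts it was 23. All 4 knockout libraries lay above all 3 controls for 1697 genes (13.2%) and below them for 686 (5.33%). The gates differ in stage, and its part in these differences was not tested. Values exist for 4 untreated DN2a libraries and 2 untreated libraries grouped as DN2b, the earlier of which is titled DN3, the next stage. Cd3e had 0.1 to 21.9 FPKM in the former and 67 to 161 FPKM in the latter. Fcer1g had 107 to 214 and 0.1 to 101.5 FPKM, and Zbtb16 8.78 to 20.5 and 0.1 to 4.85 FPKM. Id2 overlapped (2.93 to 24.6 and 15 to 21.8 FPKM), as did Cd5 and Il18r1.

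T-cell receptor genes came first among those lower. Of 21 members of this list, 5 fell, none rose, and 8 lay below all controls in every knockout library. The list's median log2 difference was -0.67, against 0.10 over all genes. Cd3e, a signalling chain of the CD3 complex, had 39.7, 41.3, 18.1 and 5.6 FPKM in knockout, against 146, 154 and 156 FPKM in control. The groups did not overlap, and the later library was the lowest knockout. Its log2 difference was -2.56 (SE 0.59, adjusted p = 0.0473), a narrow call that ended without any of 5 single libraries (adjusted p 0.0587 to 0.282, the exceptions being the July knockout on DL4 and the later knockout). In bulk samples, fewer cells with a transcript and less transcript per cell cannot be told apart. Cd3d, a second chain of that complex, had 71.2, 71.9, 103 and 51.7 FPKM in knockout, against 326, 227 and 179 FPKM in control. It fell by 1.59 on the log2 scale (SE 0.32, adjusted p = 0.0269). Cd247, the CD3 zeta chain, had 45.7, 51.1, 61.8 and 50.7 FPKM in knockout, against 161, 119.5 and 113 FPKM in control (log2 difference -1.30, adjusted p = 0.0244). All 3 chains were thus lower in every knockout library than in any control.

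Lat, the adaptor that links the receptor to downstream signalling, had 71.2, 65.8, 95.3 and 102 FPKM in knockout, against 335, 352 and 274 FPKM in control. The knockout libraries were all below the controls, with a log2 difference of -1.94 (SE 0.27, adjusted p = 0.00563). Cd5, a surface glycoprotein that dampens receptor signalling, was low throughout, at 2.83, 2.03, 1.8 and 1.64 FPKM in knockout, against 7.31, 8.66 and 9.81 FPKM in control (log2 difference -1.60, adjusted p = 0.0154). Cd3g, the third invariant chain encoded beside Cd3d, lay below all controls in every knockout but was not called (log2 difference -1.10, adjusted p = 0.195). Ptcra, which encodes the pre-T-cell receptor alpha chain, had 17.9, 19.6, 36.1 and 73.3 FPKM in knockout, against 66.6, 66.3 and 93 FPKM in control. Here the later knockout overlapped the controls (adjusted p = 0.0866), and without it Ptcra was called (adjusted p = 0.0134). With the date block none of the 21 genes was called, the adjusted p of Cd3e being 0.0503, of Lat 0.0669, of Cd5 0.149, of Cd247 0.174 and of Cd3d 0.207. Without the July knockout on DL1 none was called either, and without the September control on DL1 or that on DL4, 1 was.

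**Figure D1:**
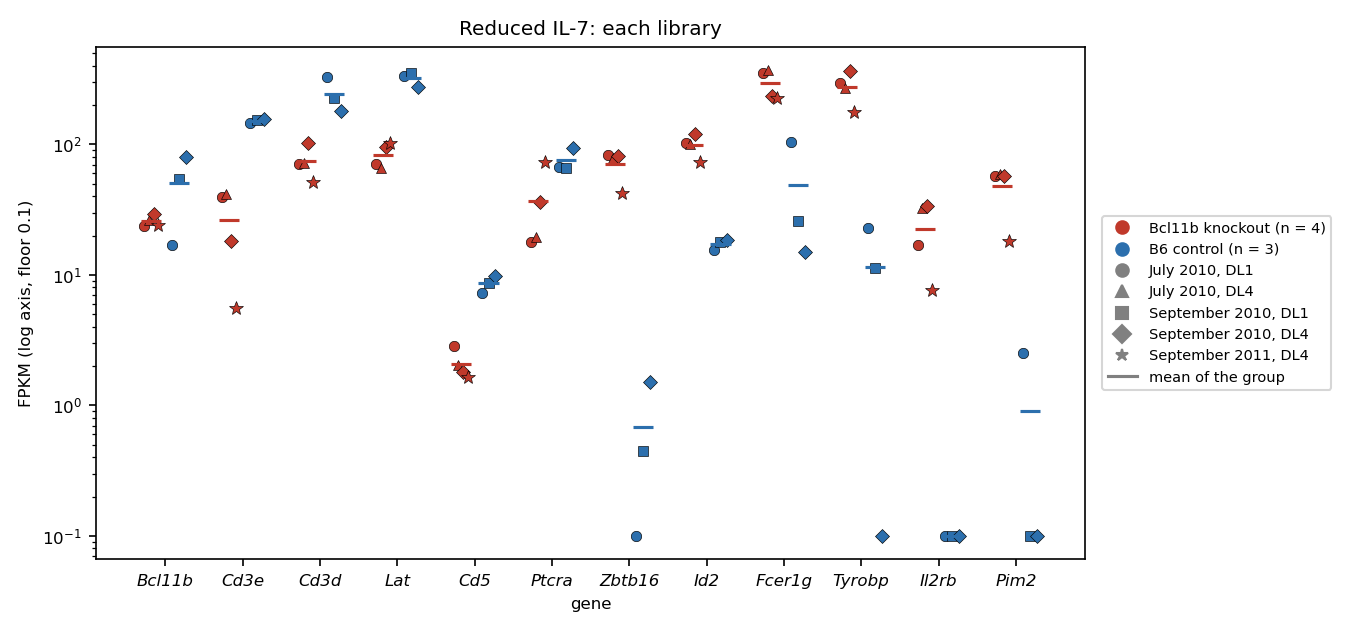
FPKM on a log axis in each reduced IL-7 library, knockout (red, left) and control (blue, right), for 12 genes; symbols give title date and stroma, bars the group mean. Knockout and control separate for all genes shown except Bcl11b and Ptcra, and the later knockout (star) is the lowest knockout for genes that include Zbtb16, Id2, Il2rb and Pim2.

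Innate lymphoid and NK genes made up the group with the most calls. Of 19 tested members 13 rose, none fell, and 17 lay above all controls in every knockout library, with a median log2 difference of 2.05 against 0.10 over all genes. Members such as Il2rb, at the floor in all controls, passed the filter on low values only through the knockouts. With no filter, 10 of 22 were called higher. Zbtb16 encodes PLZF, the transcription factor that directs innate-like lymphocyte development. It had 83.1, 78, 81.1 and 42.5 FPKM in knockout, against 0.1, 0.446 and 1.51 FPKM in control. It was thus abundant in all knockouts and close to the floor in all controls, a log2 difference of 5.34 (SE 0.38, adjusted p = 9.13e-05). Id2, an inhibitor of E proteins that innate lymphoid and NK cells require, had 103, 102, 120 and 72.8 FPKM in knockout, against 15.6, 17.8 and 18.6 FPKM in control. It rose by 2.43 on the log2 scale (SE 0.26, adjusted p = 0.00123). Nfil3, a factor that acts early in NK and innate lymphoid development, had 18.2, 17.3, 19.5 and 16.8 FPKM in knockout, against 5.55, 4.09 and 3.1 FPKM in control (log2 difference 1.98, adjusted p = 0.00451). Rora, needed for group 2 innate lymphoid cells, had 16.3, 17.9, 13.4 and 5.72 FPKM in knockout and at most 1.64 FPKM in control (log2 difference 3.04, adjusted p = 0.00923). These 4 regulators were higher in each knockout library than in any control.

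Signalling adaptors and receptors of NK cells followed. Tyrobp, the adaptor DAP12, had 294, 270, 363 and 176 FPKM in knockout, against 23, 11.3 and 0.1 FPKM in control (log2 difference 6.10, SE 0.69, adjusted p = 0.00159). Fcer1g, the Fc receptor gamma chain, which can replace the CD3 zeta chain in innate lymphocytes, had 350, 370, 234 and 225 FPKM in knockout, against 105, 25.9 and 14.9 FPKM in control. Its log2 difference was 3.44 (SE 0.51, adjusted p = 0.00681). Fcer1g was thus higher and Cd247 lower in the same libraries. Il2rb, the receptor chain shared by IL-2 and IL-15, had 16.8, 32.3, 33.8 and 7.6 FPKM in knockout and was at the floor in all 3 controls (log2 difference 4.16, adjusted p = 0.00248). Klrd1 (CD94), Gzmb (granzyme B), Klrb1c (NK1.1), Cd160, Ctsw and Il18r1 also rose, by 1.46 to 2.46 on the log2 scale. Of the effector genes, Gzmb had 46.7 to 115 FPKM in knockout, against 10.02 to 16.4 FPKM in control. Gzma (granzyme A) had 1624 to 4574 FPKM in knockout, against 1195 to 1894 FPKM in control, and was not called (adjusted p = 0.474). Prf1 (perforin), Ncr1 (NKp46) and Eomes were under 1 FPKM in all 7 libraries, and Nkg7 had a log2 difference of -0.43 (adjusted p = 0.587). With the date block 5 of the 19 genes were called, namely Zbtb16, Id2, Il2rb, Rora and Ctsw. The call ended for Tyrobp (adjusted p = 0.0613), Nfil3 (0.0786), Fcer1g (0.0787), Gzmb (0.0747), Cd160 (0.0845), Klrd1 (0.21), Klrb1c (0.204) and Il18r1 (0.156). Without the July knockout on DL1 it was 6 of 17, without the September control on DL4 7 of 19, and without both July knockouts 2 of 17. Zbtb16, Id2, Tyrobp and Il2rb were called without each single library, whereas Fcer1g was not called without the September control on DL4 (adjusted p = 0.116).

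The promoters of 4 of these genes are shown because Id2 encodes an inhibitor of E proteins, which bind the motif CAGNTG, and CD3 genes are among those that E proteins activate in T-cell precursors. Each is the 250 bases before the RefSeq transcription start (build GRCm38.p6), 5′ to 3′ on the strand of the gene, with CAGNTG on either strand in capitals.
Cd3d (lower; chr9:44981536-44981785, + strand): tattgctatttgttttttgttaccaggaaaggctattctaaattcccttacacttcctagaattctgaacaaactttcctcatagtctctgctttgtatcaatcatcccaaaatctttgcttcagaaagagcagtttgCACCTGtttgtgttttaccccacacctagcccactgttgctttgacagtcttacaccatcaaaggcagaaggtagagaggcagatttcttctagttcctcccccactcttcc
Cd3e (lower; chr9:45009612-45009861, - strand): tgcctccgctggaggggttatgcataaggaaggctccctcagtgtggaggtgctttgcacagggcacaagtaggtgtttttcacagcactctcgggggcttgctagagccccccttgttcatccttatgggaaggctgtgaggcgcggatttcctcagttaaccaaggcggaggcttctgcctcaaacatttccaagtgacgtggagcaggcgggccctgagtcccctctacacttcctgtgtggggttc
Id2 (higher; chr12:25096093-25096342, - strand): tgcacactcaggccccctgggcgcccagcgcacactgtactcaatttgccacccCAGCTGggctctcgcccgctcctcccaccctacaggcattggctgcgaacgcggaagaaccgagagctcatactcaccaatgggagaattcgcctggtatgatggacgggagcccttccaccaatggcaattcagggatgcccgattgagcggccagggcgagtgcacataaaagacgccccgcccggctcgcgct
Fcer1g (higher; chr1:171234350-171234599, - strand): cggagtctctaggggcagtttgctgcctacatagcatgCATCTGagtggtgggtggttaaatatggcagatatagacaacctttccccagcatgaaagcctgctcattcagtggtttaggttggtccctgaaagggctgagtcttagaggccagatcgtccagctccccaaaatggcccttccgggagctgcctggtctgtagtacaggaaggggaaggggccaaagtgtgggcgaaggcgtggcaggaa
Of 11 called genes looked up, 8 had such a window. CAGNTG was present before 4 of 5 lower genes (Cd3d, Cd247, Lat and Cd5, not Cd3e) and before 2 of 3 higher genes (Id2 and Fcer1g, not Fcgr3), against 44.8% of 32851 start sites. The Runx motif TGTGGT, on either strand, was in none of the 8, against 14% of start sites. The first counts are per gene and the percentages per start site, and whether they differ was not tested. A match describes letters only.

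Among progenitor regulators 2 of 17 members rose, none fell, and 7 lay above all controls, with a median of 0.51. Kit, the stem cell factor receptor and a sort marker that differs between the gates, had 93.8, 83.6, 55.1 and 41.7 FPKM in knockout, against 8.98, 14.3 and 20.7 FPKM in control. Its log2 difference was 2.14 (SE 0.39, adjusted p = 0.0186), lost with the date block (adjusted p = 0.0975). Hhex, a homeobox regulator of early progenitors, had 20.6, 19.7, 16 and 12 FPKM in knockout, against 6.5, 3.86 and 6 FPKM in control (log2 difference 1.53, adjusted p = 0.0283, and 0.152 with the date block). Sfpi1, an older symbol of Spi1 for the myeloid and progenitor factor PU.1, had 17.2, 20, 17.1 and 24 FPKM in knockout, against 12.7, 4.92 and 4.53 FPKM in control. It lay above all controls without passing the test (adjusted p = 0.0634), and passed it without the July control (adjusted p = 0.0146). Kit, Hhex and Sfpi1 were also higher in the untreated DN2a libraries than in the untreated libraries grouped as DN2b, which include the one titled DN3. Kit had 64.6 to 92.7 against 13.1 to 40.1 FPKM, Hhex 23.8 to 35.3 against 6.63 to 7.89 FPKM. Sfpi1 had 38.2 to 55.5 against 9.64 to 16.8 FPKM.

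T-lineage transcription factors showed 1 call in 18. Id3, an E-protein inhibitor induced by pre-T-cell receptor signalling, fell, with 10.7, 11.3, 17 and 15.9 FPKM in knockout, against 28.5, 37.9 and 31.3 FPKM in control (log2 difference -1.28, adjusted p = 0.0353, and 0.223 with the date block). Id2 and Id3 therefore differed in opposite directions. Gata3, required for T-cell specification, had 87.1, 75.3, 87 and 53.6 FPKM in knockout, against 13.7, 35.1 and 40.7 FPKM in control. Every knockout library was above every control, but the adjusted p was 0.123. Tcf7, which encodes TCF-1, overlapped between the groups (log2 difference 0.33, adjusted p = 0.676). None of 12 Notch targets was called, with a median of -0.08. Nrarp, a Notch-induced feedback inhibitor, had 35.3, 35.6, 29.6 and 94.4 FPKM in knockout, against 22.8, 22 and 23.4 FPKM in control (adjusted p = 0.384). All knockouts were above the controls, the later one by the most. Dtx1, another Notch target, overlapped (log2 difference -0.65, adjusted p = 0.259).

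Because IL-7 was lowered in both groups, genes of its pathway were read next. None of 10 tested receptor and signalling components was called (median log2 difference 0.34). Il7r had 79.3, 52.2, 21.4 and 49.6 FPKM in knockout, against 8.48, 17.7 and 22.2 FPKM in control. The 2 groups overlapped only through the September knockout of the first year, and the adjusted p was 0.124, or 0.0328 without that library. Il2rg had 202, 212, 199 and 144 FPKM in knockout, against 141, 107 and 91.5 FPKM in control, above all controls but not called (adjusted p = 0.134). Of 15 STAT5-response genes, 3 rose and none fell (median 0.35). Pim2, a survival kinase that cytokine signalling induces, had 57.3, 59.4, 57.1 and 18 FPKM in knockout, against 2.5, 0.1 and 0.1 FPKM in control. Its log2 difference was 5.06 (SE 0.54, adjusted p = 0.00108). The cytokine genes Osm and Lif, neighbours in the genome, were the other two. Osm had 16.8, 16.2, 19.6 and 7.05 FPKM in knockout, against 1.86, 2.23 and 2.39 FPKM in control (log2 difference 2.29, adjusted p = 0.0112). Lif had 27.2, 27.8, 30 and 16.6 FPKM in knockout, against 1.07, 5.06 and 5.69 FPKM in control (log2 difference 2.42, adjusted p = 0.0193).

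Feedback targets of STAT5 were not called. Cish, a feedback inhibitor, had 14.8, 12.9, 9.86 and 2.74 FPKM in knockout, against 10.4, 16.6 and 11.3 FPKM in control (adjusted p = 0.856). Socs2 (adjusted p = 0.564) and the survival gene Bcl2 (log2 difference 0.02, adjusted p = 0.986) overlapped between groups. Socs3, another feedback inhibitor, had 11.8, 9.59, 13.1 and 9.61 FPKM in knockout, against 22.3, 20.6 and 17.4 FPKM in control. It lay below all controls in every knockout without passing the test (log2 difference -0.73, adjusted p = 0.193). None of 13 FOXO targets was called, a group that rises when growth-factor signalling falls (median 0.49), and none of 15 glycolysis genes (median 0.01) or 18 proliferation genes (median -0.16). Of 13 p53 and apoptosis genes, Sesn2 and Perp rose (log2 differences 1.23 and 1.94, adjusted p = 0.0361 and 0.0484), and neither held with the date block (0.269 and 0.301). Of 15 cytokine receptors, 4 rose. Beside Il2rb and Il18r1 these were Il18rap, the second chain of the IL-18 receptor, and Il12rb1, a chain of the IL-12 and IL-23 receptors (log2 differences 2.16 and 1.67, adjusted p = 0.0266 and 0.0262). With the date block Il18r1, Il18rap and Il12rb1 were not called (adjusted p = 0.156, 0.142 and 0.0503).

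The largest differences included genes outside the T-lineage lists. Dlk1, a Delta-like surface protein expressed by fetal progenitors, had 217, 186, 224 and 75.8 FPKM in knockout and was at the floor in all controls (log2 difference 7.33, adjusted p = 1.51e-05). Tnni1, the slow skeletal muscle form of troponin I, had 147, 173, 205 and 114 FPKM in knockout, likewise with all controls at the floor (log2 difference 7.14, adjusted p = 3.5e-06). Fitted differences against the floor depend on the added 1 FPKM and are no bounds. Fcgr3, a low-affinity IgG receptor of NK and myeloid cells, had 64, 71.4, 60.5 and 54.8 FPKM in knockout and at most 0.475 FPKM in control (log2 difference 5.76, adjusted p = 6.49e-06). Itga2b, the integrin CD41, had 48.5, 38.4, 73.2 and 38 FPKM in knockout and at most 1.96 FPKM in control (log2 difference 5.14). P2rx1, an ATP-gated ion channel, had 35.2, 28.2, 33.9 and 19.8 FPKM in knockout and at most 0.851 FPKM in control (log2 difference 4.66). For these 5 genes the lowest knockout library was over 19 FPKM while no control reached 2 FPKM. In untreated DN2a libraries and those grouped as DN2b, including the one titled DN3, Itga2b had 80.8 to 108 and 0.1 to 1.43 FPKM. Fcgr3 had 11.6 to 38.1 and 0.1 to 2.38 FPKM, and P2rx1 18.1 to 23.3 and 0.1 to 2.63 FPKM. Tnni1 had 0.1 to 33.4 FPKM and Dlk1 0.1 to 15.8 FPKM in untreated DN2a. Both were at 0.1 FPKM in the untreated libraries grouped as DN2b.

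Among the most lowered genes, Tmem180, which encodes a membrane protein, had 0.1, 0.957, 0.186 and 2.34 FPKM in knockout, against 21.4, 35.1 and 28 FPKM in control (log2 difference -4.26, adjusted p = 0.000712). Tubb2b, a beta tubulin, had 0.1, 0.1, 11.6 and 29.5 FPKM in knockout, against 85.5, 81.2 and 87.3 FPKM in control (log2 difference -4.83, adjusted p = 0.0385). The Tubb2b values of the knockouts followed the title date rather than the stroma. Gbp6, an interferon-induced GTPase, had 0.1, 0.527, 5.99 and 0.1 FPKM in knockout, against 16.5, 14 and 34.4 FPKM in control (log2 difference -3.92). Tbxa2r, the thromboxane receptor, was at the floor in the 3 knockouts of the first year and at 6.38 FPKM in the later one, against 31.2, 36.5 and 15.3 FPKM in control (log2 difference -3.92). Sox13, a transcription factor of gamma-delta T cells, had 3.8, 6.21, 4.65 and 18.8 FPKM in knockout, against 25, 70.8 and 62.5 FPKM in control (log2 difference -2.96). Ndrg1, Ly6c1 and the claudin gene Cldn4 also fell, with log2 differences of -2.77 to -2.65 and no overlap between the groups. With the date block the calls of Tubb2b (adjusted p = 0.0826), Gbp6 (0.0803), Ndrg1 (0.0787) and Ly6c1 (0.17) ended, and those of Tmem180, Tbxa2r, Sox13 (0.0498) and Cldn4 did not.

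**Figure D2:**
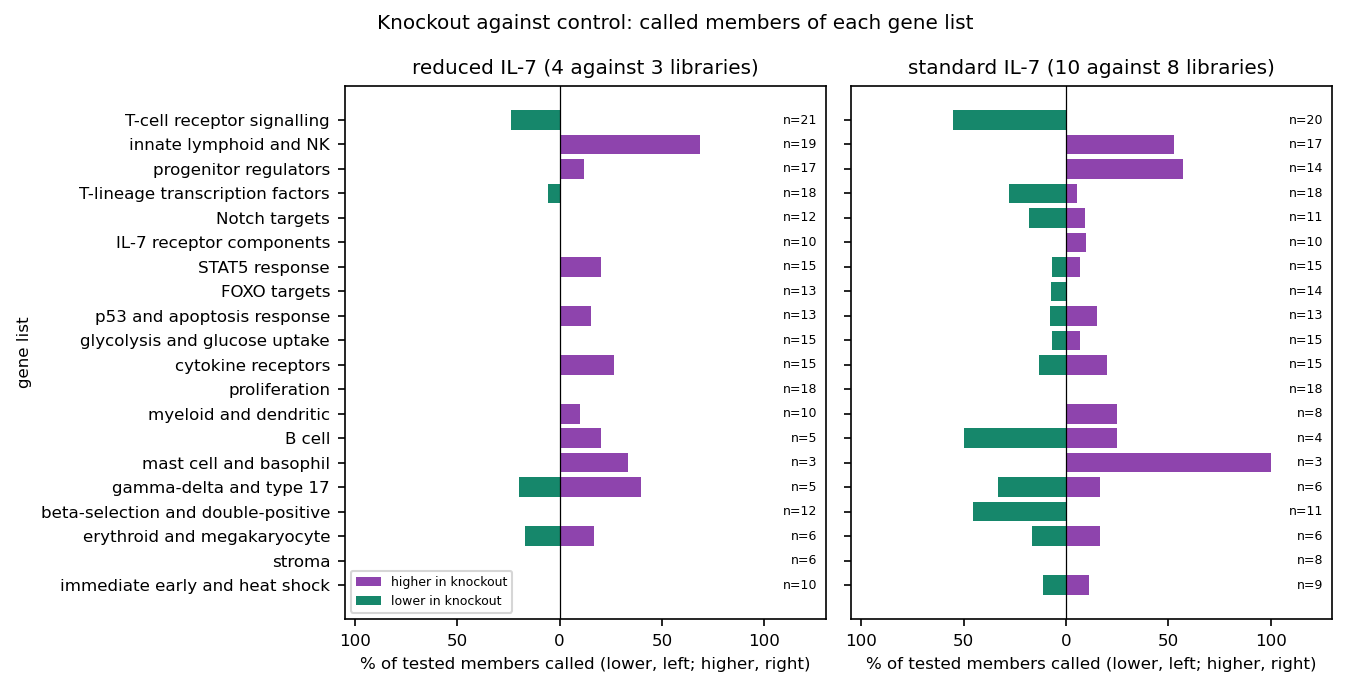
Share of the tested members of each gene list that were called lower (left of 0) or higher (right of 0) in knockout against control, with reduced IL-7 (left panel) and standard IL-7 (right panel); n is the number of members tested. With reduced IL-7 the innate lymphoid and NK list has 13 of 19 members higher and the T-cell receptor list 5 of 21 lower.

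Markers of other cell types that the gates could hold were read in the same libraries. Of 10 tested myeloid and dendritic genes only Fcgr3 rose. The summed level of that list was 81.7 to 138 FPKM in knockout, against 32.6 to 43.3 FPKM in control, and the neutrophil genes Elane, Ctsg and Csf3r were under 1 FPKM in all 7 libraries. Fcgr3 alone made up 54.8 to 71.4 FPKM of that sum in knockout and at most 0.475 FPKM in control. Of 3 tested mast cell genes Cpa3 rose, with 564, 487, 186 and 408 FPKM in knockout, against 142, 105 and 117 FPKM in control (log2 difference 1.83, adjusted p = 0.034, and 0.278 with the date block), while Cma1 was under 1 FPKM throughout (sums 191 to 569 FPKM in knockout and 107 to 144 FPKM in control). Of 5 tested B-cell genes Pou2af1 rose (log2 difference 1.82, adjusted p = 0.00963, and 0.108 with the date block), and Cd79a and Ebf1 were under 1 FPKM in all libraries (sums 27.4 to 41.6 FPKM in knockout and 19.4 to 32.5 FPKM in control). Vpreb1 and Igll1, surrogate light chain genes of B-cell precursors, lay below all controls in every knockout without passing the test (log2 differences -1.09 and -0.88, adjusted p = 0.0704 and 0.0773). Among 6 erythroid and megakaryocyte genes Itga2b rose, whereas Gata1 fell, with 1.54, 1.64, 1.47 and 3.84 FPKM in knockout, against 15.4, 12.4 and 11.8 FPKM in control (log2 difference -2.27, adjusted p = 0.00696). The platelet genes Pf4, Gp9 and Ppbp were under 1 FPKM throughout, and the list summed to 245 to 306 FPKM in knockout and 106 to 194 FPKM in control. Most of that sum was the beta globin gene Hbb-b2, whose reads may be shared with its near-identical copy Hbb-b1, with 193 to 247 FPKM in knockout, against 89.5 to 167 FPKM in control, above all controls but not called (adjusted p = 0.0777). Of 5 gamma-delta and type 17 genes, Cd163l1, a scavenger receptor of gamma-delta T cells, and the transcription factor Maf rose, and Sox13 fell as given above. Their sum was 343 to 509 FPKM in knockout and 97 to 197 FPKM in control. Cd163l1 had 372, 299.8, 480 and 381 FPKM in knockout, against 55.3, 112 and 83.8 FPKM in control (log2 difference 2.19, adjusted p = 0.00681). Maf had 20.1, 14.3, 11.9 and 11 FPKM in knockout, against 1.2, 2.53 and 2.59 FPKM in control (log2 difference 2.38, adjusted p = 0.0053, and 0.0622 with the date block). None of 6 stromal, 10 immediate early and heat shock or 12 beta-selection genes was called. Stromal sums ran from 34.9 to 64.5 FPKM in knockout and from 21.6 to 93.2 FPKM in control. Sums of the immediate early and heat shock list ran from 608 to 831 FPKM in knockout and from 546 to 648 FPKM in control. The part of these cell types in the differences above was not tested.

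The knockout difference was then compared with that in the 18 libraries with standard IL-7, which the fit above does not use. There 1396 of 12664 genes were called (11%), 729 higher (5.76%) and 667 lower (5.27%). Of the reduced IL-7 calls, 408 were tested in both sets, and 385 of these (94.4%) had the same sign with standard IL-7, against 63.8% of all 12378 genes tested in both. In total 298 were called in both, which is 73% of the 408 reduced IL-7 calls and 21.6% of the 1381 standard IL-7 calls tested in both sets. The median size of the 408 differences was 1.77 with reduced IL-7 and 0.84 in the same direction with standard IL-7, where the first value comes from the fit that chose these genes. Across the genes tested in both sets the differences correlated at r = 0.553 (rho = 0.443). Genes are not independent, and the sets differ in year and title stage as well as IL-7. T-cell receptor genes fell in 11 of 20 cases with standard IL-7, and innate lymphoid and NK genes rose in 9 of 17. The beta-selection list had 5 of 11 members lower with standard IL-7 and none of 12 called with reduced IL-7, and progenitor regulators 8 of 14 higher against 2 of 17. Whether those counts differ was not tested as such, and the sets differ in size.

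**Figure D3:**
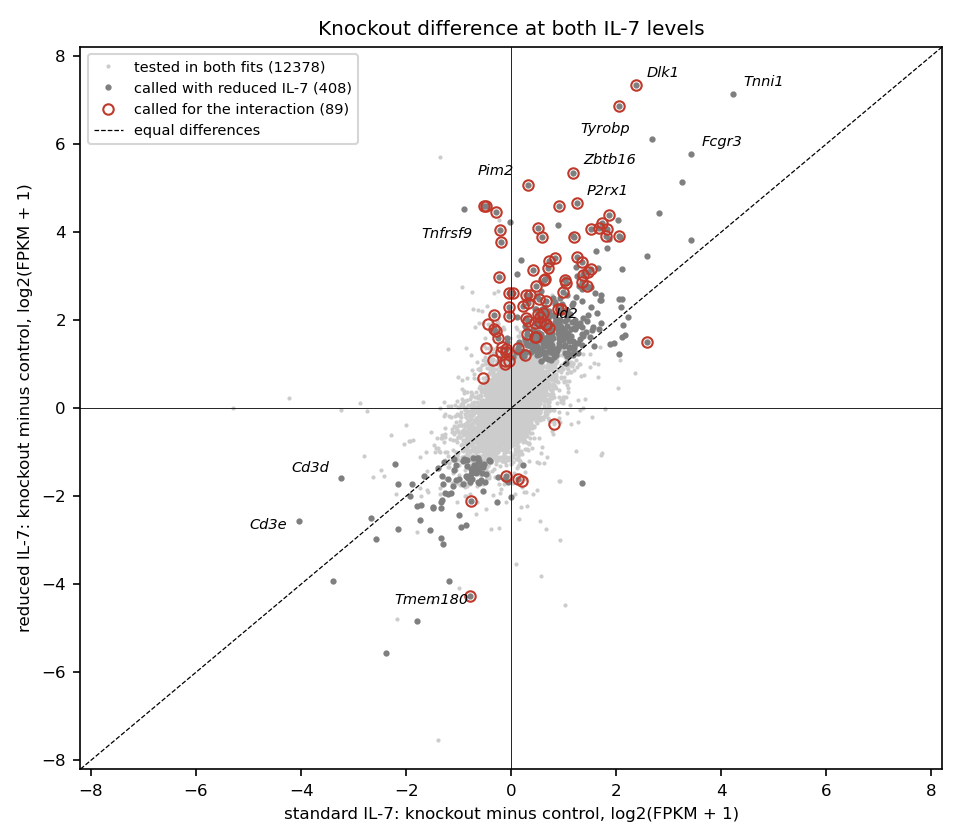
Knockout minus control difference in log2(FPKM + 1) with standard IL-7 (horizontal axis) and with reduced IL-7 (vertical axis), 1 point per gene tested in both sets, with genes called for reduced IL-7 in dark grey and genes called for the interaction circled. Most circled genes lie above the diagonal, with Zbtb16, Pim2, Dlk1 and Tnfrsf9 among the highest.

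Whether the knockout difference itself depended on the IL-7 label was tested with an interaction term over all 25 libraries. It was called for 100 of 14271 genes (0.701%). Of these, 92 had a positive interaction, a higher knockout difference under reduced IL-7 (0.645%). The other 8 had a negative interaction, a less positive or more negative knockout difference (0.0561%). Of the 100, 89 were also tested with standard IL-7. For 60 of these the knockout difference had the same sign at both levels and was larger with reduced IL-7, and for 28 it had opposite signs. In 84 of all 100 the absolute IL-7 difference was larger in control than in knockout. The matching shares over all tested genes were not counted, so these counts are not read as a trait of the 100. Quantile normalization gave 59 calls, 46 of them positive. Zbtb16 in knockout was 42.5 to 83.1 FPKM with reduced IL-7, against 8.53 to 78 FPKM with standard IL-7. In control it was at most 1.51 FPKM with reduced IL-7, against 8.82 to 21.1 FPKM with standard IL-7. Its interaction was 4.07 on the log2 scale (adjusted p = 8.02e-05). Pim2 had 18 to 59.4 FPKM in knockout with reduced IL-7, against 5.97 to 18.6 FPKM with standard IL-7. In control it was at most 2.5 FPKM with reduced IL-7, against 4.44 to 15.8 FPKM with standard IL-7 (interaction 4.23, adjusted p = 0.000109). With standard IL-7 the knockout difference of Pim2 was 0.32 and was not called (adjusted p = 0.343). Dlk1 (interaction 4.42, adjusted p = 0.00719) was at the floor in all reduced IL-7 controls, against 3.07 to 42.6 FPKM in standard IL-7 controls.

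Tnfrsf9, the costimulatory receptor 4-1BB, had 52.4, 85.5, 88.4 and 20 FPKM in knockout, against 4.59, 3.31 and 2.27 FPKM in control, with reduced IL-7. With standard IL-7 it had 6.16 to 25.5 FPKM in knockout and 8.72 to 28.7 FPKM in control, so the groups overlapped (interaction 3.64, adjusted p = 0.00131). Fam129a had an interaction of 3.42 (adjusted p = 0.00268), P2rx1 of 3.23 (adjusted p = 6.07e-05) and Id2 of 1.67 (adjusted p = 0.0144). Kit and Maf passed narrowly, with 1.73 (adjusted p = 0.0454) and 2.02 (adjusted p = 0.0282). In the opposite direction, Tmem180 had -2.91 (adjusted p = 0.0238) and Ndrg2 -1.62 (adjusted p = 0.0316). Kcne3, a potassium channel subunit, had -1.17 (adjusted p = 0.0164). The calls of Kit, Maf, Ndrg2 and Tmem180 each ended without any of 3 to 5 single libraries, and that of Kcne3 without the September control on DL4 (adjusted p = 0.0591). The interactions of Zbtb16, Pim2, P2rx1, Tnfrsf9 and Fam129a were called without each single reduced IL-7 library. That of Dlk1 was not called without the July knockout on DL1 or the September control on DL4 (adjusted p = 0.0558 and 0.0591), nor was that of Id2 (adjusted p = 0.0914 and 0.0673). The count of calls ran from 40 without the July knockout on DL1 to 202 without the later one. It was 49 without the July knockout on DL4 and 43 without the September control on DL4. Among controls, and among knockouts once the later one is left out, IL-7 level and title year cannot be told apart.

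**Figure D4:**
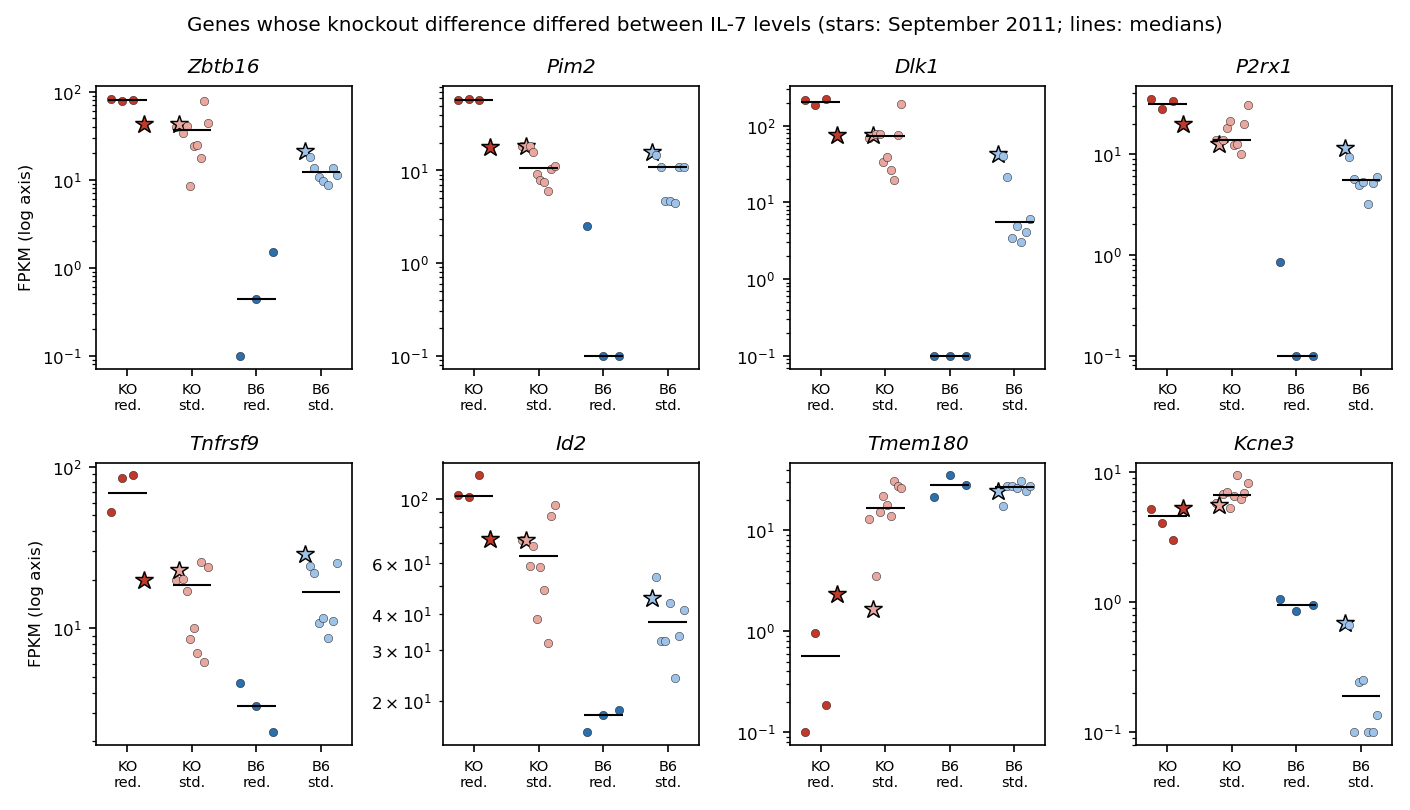
FPKM on a log axis of 8 genes called for the interaction in knockout (red) and control (blue) libraries, each with reduced IL-7 (dark) and standard IL-7 (light); points are libraries, lines medians, and stars the later September date. The 2 knockout stars share date and stroma but differ in IL-7, and lie at 42.5 and 42.6 FPKM for Zbtb16, at 18 and 18.5 FPKM for Pim2 and at 19.8 and 12.7 FPKM for P2rx1.

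Within one genotype, reduced was then set against standard IL-7. In knockout, 2 of 14271 genes were called (0.014%), 1 higher (0.00701%) and 1 lower (0.00701%), with 1033 at an unadjusted p under 0.05. Tmem180 fell, with 0.1 to 2.34 FPKM under reduced IL-7 and 1.68 to 30.9 FPKM under standard IL-7 (log2 difference -2.72, adjusted p = 0.0181). Cd200r4, a receptor of the CD200 family outside the naming rule, rose by 0.92 (adjusted p = 0.035). Without the later knockout, every reduced IL-7 knockout is of the first year and every standard one of a later year. IL-7 level and title year then cannot be told apart. In that fit 128 genes were called. These included the other genes named for this comparison, Pim2 (adjusted p = 0.00331), Tnfrsf9 (0.00359), Irak3 (0.0159), Tgfb3 (0.00559), Dusp18 and Sox13 (both 0.000763), Cerkl (0.00411), Micall2 (0.00403) and Tbxa2r (8.4e-05). Pim2, for example, had 57.1 to 59.4 FPKM in the 3 knockouts of the first year, against 5.97 to 18.6 FPKM with standard IL-7, while the later knockout had 18 FPKM. Without the July knockout on DL1, Tmem180 was no longer called (adjusted p = 0.943).

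In control, 141 genes were called (0.988%), 27 higher (0.189%) and 114 lower (0.799%) with reduced IL-7. Quantile normalization gave 48 higher and 93 lower. Leaving out the September control on DL1 left 63. Zbtb16 and Dlk1 were among the most lowered, with log2 differences of -3.17 and -3.35 (adjusted p = 3.4e-05 and 0.0041). The others were Cd8b1, Cd8a and Cd4, with differences of -3.93, -3.54 and -3.51 (adjusted p = 0.00528, 0.00429 and 0.00375). These 3 co-receptor genes followed the title date. Cd4 had 17.1, 17.6, 0.1 and 10.1 FPKM in knockout and 19.6, 0.1 and 0.1 FPKM in control. It was at the floor in all 3 libraries of the first September, of both genotypes and both stromas, and at 10 FPKM or more in the other 4. Cd8a and Cd8b1 had the same pattern. The part of the ComBat adjustment in it was not tested. Over all genes in the files, 4 were at the floor in those 3 libraries and at 5 FPKM or more in the other 4, the fourth being the predicted gene Gm7206. Standard IL-7 controls had 23.4 to 59.4 FPKM of Cd4. Dntt, which encodes terminal deoxynucleotidyl transferase, was higher, with 73.5, 51 and 66.4 FPKM in reduced IL-7 controls, against 0.1 to 30.4 FPKM and a median of 0.1 FPKM in standard IL-7 controls (log2 difference 4.67, adjusted p = 0.0437). In knockout Dntt had 71.8 and 71.2 FPKM on the July date and was at the floor on the others. Epb4.1l4b, Camkv and Trim46 rose by 2.28, 2.07 and 0.68. The calls of Camkv and Trim46 ended without some single libraries (up to adjusted p = 0.14 and 0.407). The Dntt call ended without any one of the 3 controls, and those of Cd4, Cd8a and Cd8b1 without the September control on DL1.

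**Figure D5:**
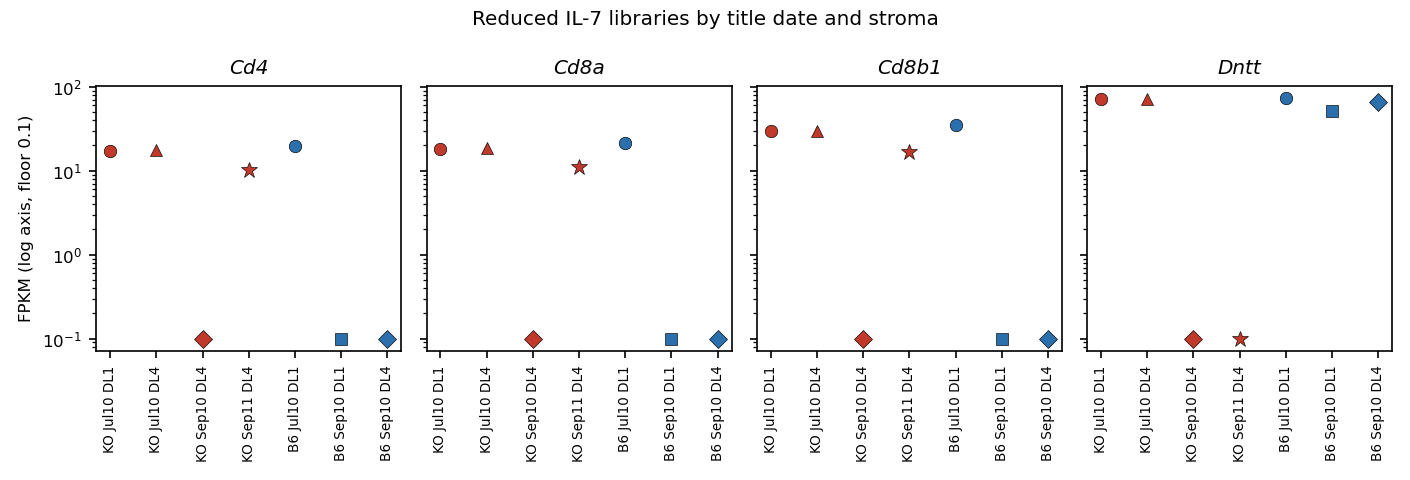
FPKM on a log axis of Cd4, Cd8a, Cd8b1 and Dntt in the 4 knockout (red) and 3 control (blue) reduced IL-7 libraries, labelled by title date and stroma. Cd4, Cd8a and Cd8b1 are at the floor of 0.1 FPKM in the 3 libraries of the first September of both genotypes, and Dntt in the knockouts of both Septembers.

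A single pair of knockout libraries shared date and stroma and differed in the IL-7 label, both from DL4 cultures of the later September. With 1 library each there is no test. Of 13064 genes at 1 FPKM or more in either library, 227 (1.74%) differed by 2-fold or more, 150 higher (1.15%) and 77 lower (0.589%) with reduced IL-7. Most genes with an interaction named above differed little in this pair, with Ndrg2 and P2rx1 as the widest exceptions. Zbtb16 had 42.5 FPKM with reduced and 42.6 FPKM with standard IL-7, Dlk1 75.8 and 76.8 FPKM, Id2 72.8 and 71.7 FPKM, and Pim2 18 and 18.5 FPKM. Ndrg2 had 3.49 and 9.11 FPKM (log2 difference -1.17) and P2rx1 19.8 and 12.7 FPKM (0.60). Of the 100 genes called for the interaction, 95 reached 1 FPKM in the pair and 1 of them differed by 2-fold or more. Their median absolute difference was 0.12 on the log2 scale, against 0.22 over all genes of the pair. Both libraries of the pair were in the fit that chose the 100 genes, and that fit favours genes with little spread within groups. The pair is therefore no independent check of these genes. The control of that date, with standard IL-7, had 15.8 FPKM of Pim2 and 21.1 FPKM of Zbtb16.

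The largest differences in the pair lay elsewhere. Aldh1b1, a mitochondrial aldehyde dehydrogenase, had 52.8 FPKM with reduced and 13.8 FPKM with standard IL-7. The histone genes Hist1h2ao and Hist1h2ap, near-identical copies with the same listed values whose reads cannot be assigned apart, and Hist1h4k were also higher, Hist1h4k with 17.2 and 5.09 FPKM. Xaf1, an interferon-induced apoptosis gene, had 15.7 and 5.11 FPKM. Lower with reduced IL-7 were Kctd12 (0.1 and 6.77 FPKM), the ribosomal protein gene Rps27 (64.9 and 342 FPKM), Sap18 (3.76 and 18.4 FPKM), the fatty acid desaturase Scd1 (6.44 and 19.8 FPKM) and the prion protein gene Prnp (5.17 and 13.48 FPKM). Il7r had 49.6 and 43.8 FPKM, Bcl2 15.8 and 24.8 FPKM, and Socs2 34.1 and 31.1 FPKM. STAT5-response genes had a median difference of 0.00 in the pair, and FOXO targets -0.12.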

How the data were processed

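The authors deposited 1 table of FPKM for 17754 genes, described by its name as merged and adjusted with ComBat, with the mm9 build named in the submitters' processing notes. No source used here names the aligner, the quantifier or the ComBat batches, and the adjustment could move differences either way. Depth is unknown, so no counting interval is given. Columns were matched by the number in each sample's description, and 16 columns that matched none were left out. The library protocol in the labels describes no marking of strand.

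Members, lists and tests were chosen with earlier results of these data known. Differences of log2(FPKM + 1), which understates changes of low genes, were fitted with limma 3.58.1 (R 4.3.3, trended empirical Bayes, two-sided, Benjamini-Hochberg over all genes tested) and tested on simulated data. A gene needed 1 FPKM in as many libraries as the smaller group held. The reduced IL-7 fit used 7 libraries with stroma as a term. The interaction and the IL-7 differences used 25 libraries, 4 group means and stroma. Named genes were a fixed set, the 8 called genes with the largest difference each way reaching a mean of 5 FPKM in either group, up to 4 called members per list (2 most abundant where none), and the top 5 each way of the other comparisons. Other list members were named after their values were seen. Alternatives were a pseudocount of 0.1, no filter, other scalings, robust variances, other terms and subsets, a block on title date, and each library left out. Title dates come from the labels. Deviations of knockout and control libraries of 1 date correlated between -0.3 and 0.237. List members not in the table, such as Tbx21, Il1rl1, Pax5 and Il17a, were not used.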

Additional observations from a re-analysis of the deposited data

Results flagged for a closer look

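Among the 4 reduced IL-7 knockouts, 14 values of named genes lay far from the other 3 by Dixon's criterion, which chance meets in about 1 in 20 groups. The 14 cannot be set against that rate, because many genes were named by values of these same libraries. Kctd12, for example, was named by its low value in the later knockout. The September library of the first year stood alone at the floor of 0.1 FPKM for Cd8a and Cd8b1. The other 12 were all in the later knockout. It was lowest for Zbtb16 (42.5 FPKM), Pim2 (18 FPKM), Lif (16.6 FPKM), Tgfb3 (2.6 FPKM), Il2rg (144 FPKM), Tcf7 (376 FPKM) and Kctd12 (0.1 FPKM). It was highest for Nrarp (94.4 FPKM), Gata1 (3.84 FPKM), Tbxa2r (6.38 FPKM) and Cldn4 (2.01 FPKM). Hsp90aa1, a heat shock protein gene, stood apart at 672 FPKM.

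The knockout difference was larger in the positive direction with reduced than with standard IL-7, by the interaction test with limma, for Dlk1 (4.42 on the log2 scale), Pim2 (4.23), Zbtb16 (4.07), Tnfrsf9 (3.64), Fam129a (3.42), P2rx1 (3.23), Tgfb3 (2.3), Maf (2.02), Irak3 (1.76), Kit (1.73) and Id2 (1.67). The interaction was negative for Tmem180 (-2.91), Ndrg2 (-1.62) and Kcne3 (-1.17). For Kcne3 the knockout difference was positive at both IL-7 levels and smaller with reduced IL-7.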

How the results depend on the processing

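For knockout against control with reduced IL-7, 430 genes were called. The count was 278 with no filter on low values, 805 without the stroma term, 1431 with the spread shared over 25 libraries, 133 with the replicate block on title date, 23 without both July knockouts (chosen after seeing the data) and 71 to 475 leaving out single libraries. Innate lymphoid and NK genes called, 13 of 19, came to 10 of 22 with no filter and 5 with the block. They came to 2 without both July knockouts and 6 to 15 leaving out single libraries. T-cell receptor genes called, 5 of 21, came to 3 with no filter or with equal totals, 0 with the block, 1 without both July knockouts, and 0 to 6 leaving out single libraries. With standard IL-7, 410 genes were called among libraries titled DN2a for knockout and DN2b for control, against 1396 in all. Interaction calls, 100 in all, came to 59 with quantile normalization and 59 with those titles only, 217 with title year as a term, 34 with DL4 libraries only and 40 to 202 leaving out single libraries. The 2 calls between IL-7 levels in knockout became 1 with a pseudocount of 0.1, with quantile normalization or with equal totals, 34 without the stroma term, 0 with those titles only (647 at an unadjusted p under 0.05), 0 with DL4 libraries of the later year only (437 unadjusted), and 0 to 128 leaving out single libraries. In control the 141 calls became 220 with a pseudocount of 0.1 and 63 to 176 leaving out single libraries. The causes were not tested.

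Among 64 named genes tested, 38 were called. Over 17 alternatives each, 882 values kept direction and side of the threshold, 174 lost the call, 14 gained one and 18 turned direction, all in knockout against control with reduced IL-7. The fit without the later knockout was entered again as the fit to libraries of the first year, so these totals count it more than once. Of the 38, 11 were called without each of the 7 libraries: Dlk1, Fcgr3, Id2, Il2rb, Itga2b, P2rx1, Pim2, Tmem180, Tnni1, Tyrobp and Zbtb16. Of the other 27, 26 lost the call without the July knockout on DL1, and 20 without the September control on DL4. The count was 17 without the September control on DL1 and 4 without the July knockout on DL4. It was 3 without the later knockout and 1 without the September knockout of the first year. Without the July control it was 10, namely Cd3d, Cd3e, Cpa3, Id3, Il18r1, Il18rap, Ly6c1, Sesn2, Tbxa2r and Tubb2b. None of the 18 belonged to a called gene. Bcl2 was -0.048 with quantile normalization, -0.023 with the shared spread, -0.67 without both July knockouts and -0.41 to 0.51 leaving out single libraries. Without both July knockouts Il2ra was -0.065, Pdgfrb -0.32 and Sparc 0.46. Pcna was 0.02 with quantile normalization and Pkm2 0.00 with the block. Leaving out single libraries, Pcna ranged from -0.29 to 0.014, Pdgfrb from -0.17 to 0.61, Pkm2 from -0.57 to 0.059 and Sparc from -0.99 to 0.12. Between IL-7 levels in knockout, DL4 libraries of the later year gave -0.019 for Irak3, -0.035 for Pim2, -0.072 for Tnfrsf9 and 0.58 for Tbxa2r. The deposited FPKM carry no depth, so limits of detection at the floor are unknown.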
